A study of Mus musculus with 48 samples.

Results

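Potassium channels let potassium leave or enter the cell and so set the resting potential, the shape of the action potential and the firing pattern of neurons. The genes described here are the protein-coding genes whose GENCODE M21 symbol begins with Kcn, a family letter or letters and a number, with Kcne2, Kcnj9, Kcnj10 and Kcnj13 left out. The rule found 89 genes among the 48709 genes listed, of which 21695 were protein-coding. They were 8 Kv1 genes (Kcna), 2 Kv2 (Kcnb), 4 Kv3 (Kcnc), 3 Kv4 (Kcnd), 10 electrically silent subunits (Kcnf, Kcng, Kcns, Kcnv), 5 KCNQ, 8 EAG/ERG/ELK (Kcnh), 11 auxiliary subunits (Kcnab, Kcne, Kcnip), 12 calcium- or sodium-activated channels with their auxiliary subunits (Kcnma, Kcnmb, Kcnn, Kcnt, Kcnu), 12 inward rectifiers (Kcnj) and 14 two-pore channels (Kcnk).

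The voltage-gated families open on depolarization: Kv1 channels limit excitability at the axon, Kv2 channels carry delayed rectifier current in the soma, Kv3 channels allow fast firing and Kv4 channels carry the transient A current of dendrites. Silent subunits form no channel alone and alter Kv2 channels, KCNQ channels carry the M current, and the auxiliary beta subunits and KChIPs (Kcnip) change gating and surface level. Inward rectifiers and two-pore channels hold the resting potential, and granule cells of the dentate gyrus (DG) are known for a strongly negative resting potential and sparse firing.

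Messenger RNA was sequenced from whole mouse brain tissue to ask how loss of Fmn2, which encodes the actin nucleator Formin 2, changes gene expression with age and in an amyloid mouse line. All 46 mice were labelled C57BL/6J, and the knockout was constitutive, not limited to a cell type or age. In the DG there were 5 wild-type (Fmn2+/+) and 5 Fmn2 knockout (Fmn2-/-) mice of 3 months, and 3 wild-type and 5 knockout mice of 8 months. In a cross with mice carrying the transgene that the labels call APP there were 7 mice labelled FMN2-/-_APP and 9 labelled FMN2 +/+ APP, all of 3 months. A further 6 APP and 6 wild-type mice, labelled as 4 months old and with no Fmn2 mutation in the label, had PFC (prefrontal cortex) in their sample titles and dentate gyrus in their source label.

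Labels of genotype and of tissue went against the counts. Fmn2 was between 93.2 and 113 CPM (counts scaled to a common library total by edgeR's TMM method over all mice) in wild-type DG of 3 months and between 23.004 and 28.1 in knockout DG of that age, while libraries labelled FMN2-/-_APP held 84.2 to 103.7 CPM and those labelled FMN2 +/+ APP 19.2 to 24.2. The genotype in the cross is therefore given only as the libraries are labelled. In the PFC-titled libraries the 8 DG granule cell markers summed to 192 to 291 CPM, against 747 to 1499 in the DG libraries, and the 9 markers of cortical projection neurons summed to 700 to 795 CPM, against 208 to 457, so the counts followed the titles. Total counts per mouse ran from 6818809 to 43921030, and at 8 months no wild-type library (6818809, 8381078 and 43921030) lay within the range of the knockout libraries (9175551 to 11675280). Choroid plexus markers summed to 4259 CPM in 1 knockout mouse of 3 months and to 6030 and 9242 in 2 mice labelled FMN2 +/+ APP, against at most 580 in every other mouse.

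Most of the 89 genes were expressed in both regions. In wild-type DG of 3 months 70 of the 89 had a mean of at least 1 CPM and 16 at least 100 CPM, and in the wild-type PFC-titled group these numbers were 70 and 19. The 89 genes together took 5090 ± 217 CPM (SD, n = 5) in that DG group and 5622 ± 137 CPM (SD, n = 6) in the PFC-titled group. Of the 89, 13 were too low for a test in any comparison, at 28 reads or fewer in every mouse: Kcna7, Kcna10, Kcne1, Kcne3, Kcnj1, Kcnj15, Kcnk7, Kcnk15, Kcnk16, Kcnk18, Kcnmb3, Kcnn4 and Kcnv2. These counts do not show that the genes are absent. In whole tissue fewer cells of a type and less RNA per cell cannot be told apart.

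The order of the genes by level differed between the regions. Per kilobase of exon, which allows genes to be compared, Kcnab2 (a beta subunit of Kv1 channels) was highest in wild-type DG of 3 months at 110 ± 4.82 CPM per kb (SD, n = 5). The KChIP gene Kcnip2 followed at 60.2 ± 5.93, Kcnk1 (the two-pore channel TWIK-1) at 53.2 ± 3.64 and Kcnj3 (the G protein-gated channel GIRK1) at 49.2 ± 3.90. The ranges of mean ± SD of Kcnk1 overlapped those of both its neighbours in this order. In the wild-type PFC-titled group Kcnab2 was again highest at 78.3 ± 4.27 CPM per kb (SD, n = 6), but Kcnj4 (the strong inward rectifier Kir2.3) was next at 54.2 ± 5.21, then the KChIP gene Kcnip3 at 51.0 ± 2.82 and the silent subunit gene Kcnf1 at 44.1 ± 5.85. The ranges of mean ± SD of Kcnj4, Kcnip3 and Kcnf1 overlapped each other, so the order among them is not settled. The family shares differed as well. EAG/ERG/ELK genes took 4.56% ± 0.650 of the CPM of all 89 genes in DG and 9.34% ± 0.413 in the PFC-titled group, Kv4 genes 6.35% ± 0.183 and 3.57% ± 0.131, and auxiliary subunits 24.4% ± 1.27 and 17.5% ± 0.224 (SD, n = 5 and 6).

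The promoters of Kcnh7, Kcnf1 and Kcna4 are printed because these genes differed between the regions in wild-type and in amyloid mice alike, Kcnh7 and Kcnf1 higher in the PFC-titled mice and Kcna4 lower. Each is the 250 bases before the RefSeq transcription start on GRCm38.p6, 5′ to 3′ on the gene's strand. Capitals mark CCCGCCCC, the core of the GC box bound by SP factors, searched on both strands as CCCGCCCC and GGGGCGGG. The windows lie at chr2:63184288-63184537 (minus strand, Kcnh7), chr12:17176889-17177138 (minus strand, Kcnf1) and chr2:107290339-107290588 (plus strand, Kcna4).
Kcnh7: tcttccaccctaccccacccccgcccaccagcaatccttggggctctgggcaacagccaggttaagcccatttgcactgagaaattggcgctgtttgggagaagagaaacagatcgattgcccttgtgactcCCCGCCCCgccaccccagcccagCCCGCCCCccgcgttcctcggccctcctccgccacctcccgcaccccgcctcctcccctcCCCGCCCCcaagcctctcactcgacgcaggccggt
Kcnf1: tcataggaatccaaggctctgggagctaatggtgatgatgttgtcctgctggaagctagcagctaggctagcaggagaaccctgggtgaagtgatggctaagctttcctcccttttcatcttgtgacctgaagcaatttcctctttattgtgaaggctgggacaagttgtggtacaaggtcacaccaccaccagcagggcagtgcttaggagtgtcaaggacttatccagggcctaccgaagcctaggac
Kcna4: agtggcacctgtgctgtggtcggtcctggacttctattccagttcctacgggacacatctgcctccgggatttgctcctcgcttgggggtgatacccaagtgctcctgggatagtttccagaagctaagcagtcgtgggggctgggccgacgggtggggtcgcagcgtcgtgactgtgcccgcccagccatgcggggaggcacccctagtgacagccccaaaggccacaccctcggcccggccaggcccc
The Kcnh7 window held 3 such boxes and the other windows none, and GC content was 67.6% for Kcnh7, 51.2% for Kcnf1 and 65.2% for Kcna4. Of the 89 genes, 64 had a window in the RefSeq table, and 15 of these (23.4%) held the box, against 16.8% of 27025 genes with a window. Neither CCGGAAGC (an ETS motif) nor TGACGTCA (the cyclic AMP response element) was found in the 64 windows, against 2.53% and 1.77% of all genes. Of the 14 genes called in both region comparisons 8 had a window, and Kcnh4 and Kcnh7 held the GC box.

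Many of these genes, like many of all genes tested, differed between the PFC-titled mice and DG. Most of those called were higher in the PFC-titled mice, among them Kcnt1, Kcnh4, Kcnj12, Kcnk3 and Kcnf1, with Kcng2 and Kcna4 lower. In wild-type mice, PFC-titled libraries (4 months) were compared with DG libraries of 3 months, all with lane number 5. An equal lane number does not show a shared sequencing run. The groups also differ in experiment, and neither age nor experiment can be told apart from region. A gene was called with a p under 0.05 by the quasi-likelihood test of edgeR, Benjamini-Hochberg adjusted over all genes tested, and with a log2 fold change of at least 1 in either direction. Of 75 members tested 19 (25.3%) were called, 17 higher and 2 lower in the PFC-titled mice. Of all 16661 genes tested 20.2% were called (12.1% higher and 8.1% lower). An adjusted p under 0.05 at any fold change was reached by 60 of the 75, against 74.7% of all genes. The median log2 fold change was 0.26 over the members and -0.01 over all genes. When exon length and GC content were corrected for, 19 were again called but 13 were higher and 6 lower.

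In the amyloid mice the same contrast set the PFC-titled APP libraries against the DG libraries labelled FMN2 +/+ APP, in which Fmn2 was low. These groups differ in age and experiment as well, which cannot be told apart from region. With the DG libraries labelled FMN2-/-_APP as the reference instead, whose Fmn2 level was close to that of the PFC-titled mice, 24 members were again called, 22 of them the same, and Kcnt1 differed by 3.08, Kcnh4 by 2.87 and Kcng2 by -2.50. Of 76 members tested 24 (31.6%) were called, 17 higher and 7 lower in the PFC-titled mice. Of all 17167 genes 20.4% were called (11.6% higher and 8.8% lower). An adjusted p under 0.05 at any fold change was reached by 65 members, against 72.7% of all genes. A fit with only the 3 DG mice with a library of the same lane number as the PFC-titled APP mice called 28 members. Of these 19 were higher and 9 lower, and 21 were among the 24. In the scatter of both comparisons 65 of 75 members had the same sign, which is 86.7%, against 83.3% of all genes tested in both. Both comparisons called 14 members with 1 sign (18.7% of those tested in both), 12 higher and 2 lower. Of all 16505 genes tested in both, 13.9% were so called (8.27% higher and 5.62% lower). Of the members tested in both, 5 were called in the wild-type comparison alone and 9 in the amyloid comparison alone. Kcnj5, tested in the amyloid comparison only, was called lower at -1.52. The difference between the comparisons was not tested.

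**Figure D1:**
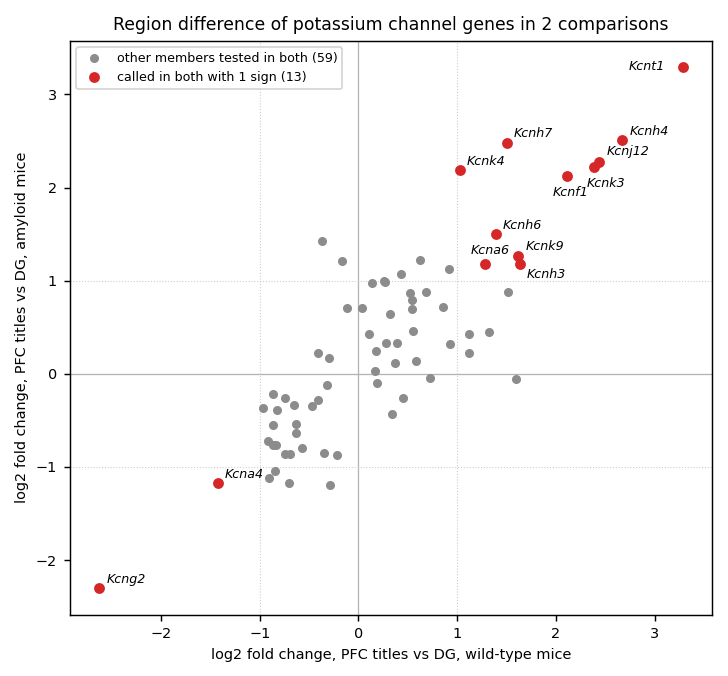
Points are 72 of the 75 potassium channel genes tested in both region comparisons, with the log2 fold change of PFC-titled against DG libraries in wild-type mice on the x axis and in amyloid mice on the y axis. Red points are 13 of the 14 genes called in both with 1 sign, from Kcng2 (-2.63 and -2.31) to Kcnt1 (3.29 and 3.30), and dotted lines mark a log2 fold change of 1 in either direction.

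The sodium-activated channel gene Kcnt1 (Slack, chromosome 2 from 25863734 to 25918273 on mm10) differed most of all members. It was at 19.9, 19.9, 21.4, 31.4 and 32.6 CPM in the 5 wild-type DG mice of 3 months, and the 6 wild-type PFC-titled mice ran from 211 to 263 CPM with a median of 238. Every PFC-titled mouse was far above every DG mouse of any group, the highest of which, replicate 7 of the mice labelled FMN2-/-_APP, was at 57.1 CPM. The log2 fold change was 3.29 (standard error, SE, 0.13, Benjamini-Hochberg adjusted p = 3.17e-11 by edgeR) in wild-type mice and 3.30 (0.099, adjusted p = 1.72e-14 by edgeR) in amyloid mice. Its paralog Kcnt2 (Slick) differed far less and was not called. Kcnt2 was at 58.3 ± 2.93 CPM (SD, n = 5) in wild-type DG and 46.7 ± 3.23 CPM (SD, n = 6) in the wild-type PFC-titled group, without overlap. The log2 fold changes had opposite signs, -0.30 in wild-type and 0.17 in amyloid mice (adjusted p = 0.000107 and 0.044 by edgeR). Among the other calcium- and sodium-activated genes none was called in either region comparison, and these included the BK channel gene Kcnma1 and the SK channel genes Kcnn1, Kcnn2 and Kcnn3.

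Of the 8 genes of the EAG/ERG/ELK family 4 were called in wild-type mice and 5 in amyloid mice, all of them higher in the PFC-titled mice, with family medians of 1.04 and 1.31 on the log2 scale. Kcnh4 (ELK1) was at 3.59, 4.67, 4.78, 4.96 and 6.62 CPM in wild-type DG of 3 months and between 24.3 and 42.5 CPM (median 28.6) in the wild-type PFC-titled mice. The groups did not overlap, and the log2 fold change was 2.67 (SE 0.17, adjusted p = 2.24e-09 by edgeR) in wild-type and 2.51 in amyloid mice. Kcnh3 (ELK2), a related forebrain channel, had log2 fold changes of 1.63 and 1.18, Kcnh6 (ERG2) 1.39 and 1.498, and Kcnh7 (ERG3) 1.5025 and 2.48. The DG level of Kcnh7 was 26.98 ± 10.5 CPM (SD, n = 9) in mice labelled FMN2 +/+ APP and 53.7 ± 21.98 (SD, n = 5) in wild-type DG, while the PFC-titled groups were at 149 ± 12.8 and 150 ± 10.4 CPM (SD, n = 6 each). Kcnh5 (EAG2) was called in the amyloid comparison alone, at log2 fold changes of 1.43 there and -0.37 in wild-type mice. Kcnh1 (EAG1), the family's highest gene per kilobase in DG at 11.1 ± 1.47 CPM per kb (SD, n = 5), differed by 0.55 and 0.46 and was not called.

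**Figure D2:**
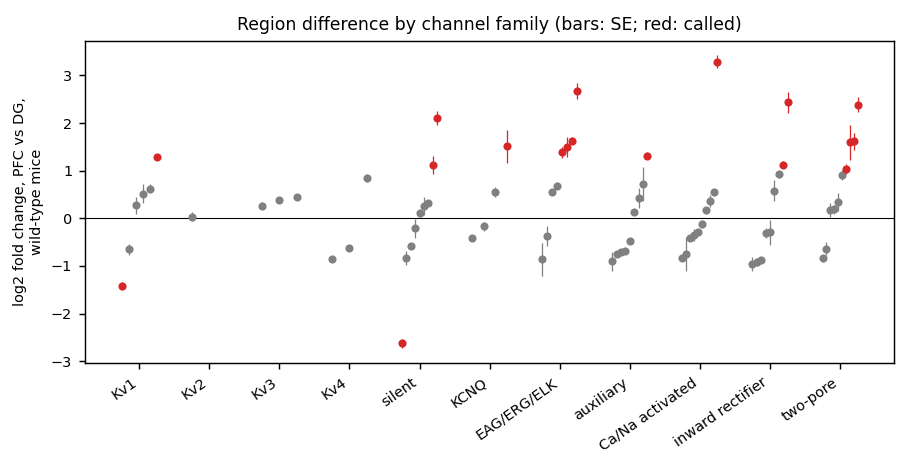
Log2 fold change of PFC-titled against DG libraries of wild-type mice for 72 of the 75 members tested, by channel family, with bars for the standard error and red for called genes. The 18 called genes shown are spread over 8 of the 11 families, with 4 in EAG/ERG/ELK and 4 among two-pore channels, and Kcna4 and Kcng2 are the only ones called lower in the PFC-titled mice.

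Silent subunits differed in both directions. Kcnf1 (Kv5.1, chromosome 12 from 17172100 to 17176888) was at 36.1, 37.8, 50.04, 58.1 and 66.1 CPM in wild-type DG of 3 months and between 174 and 244 CPM (median 221) in the wild-type PFC-titled mice. The groups did not overlap, and the log2 fold change was 2.11 (SE 0.15, adjusted p = 6.48e-09 by edgeR) in wild-type and 2.13 in amyloid mice. Kcng2 (Kv6.2) went the other way. It was at 17.0, 18.9, 19.6, 20.5 and 23.1 CPM in the DG mice and between 2.78 and 3.80 CPM (median 2.92) in the PFC-titled mice, again with no overlap. Its log2 fold change was -2.63 (SE 0.10, adjusted p = 1.65e-11 by edgeR) in wild-type and -2.31 in amyloid mice. Kcns1 was called higher in wild-type mice alone (1.12, and 0.43 in amyloid mice). Kcnv1 (Kv8.1), the family's highest gene per kilobase in DG at 21.5 ± 2.94 CPM per kb (SD, n = 5), differed by 0.32 and 0.64 and was not called.

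Kv1 genes were split. Kcna6 (Kv1.6) was at 43.4, 46.3, 47.9, 47.9 and 56.5 CPM in wild-type DG of 3 months and between 111 and 126 CPM (median 113) in the wild-type PFC-titled mice. Kcna4 (Kv1.4), which carries an inactivating current, was at 47.1, 50.8, 57.5, 58.9 and 60.8 CPM in the same DG mice and between 18.5 and 22.01 CPM (median 19.996) in the PFC-titled mice. Neither gene's groups overlapped, and the genes differed in opposite directions. The log2 fold changes in wild-type and amyloid mice were 1.28 and 1.17 for Kcna6 and -1.42 and -1.18 for Kcna4 (adjusted p = 1.11e-10 and 5.28e-10 in wild-type mice by the edgeR fit). Kcna2 (Kv1.2), the family's highest gene per kilobase in DG, was called in the amyloid comparison alone, with log2 fold changes of 0.63 and 1.22. With the other DG group of the cross, labelled FMN2-/-_APP, as the reference, the amyloid values of Kcna6 and Kcna4 were 0.97 and -0.83, under the fold threshold.

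Kcnk3 and Kcnj12, a two-pore and an inward rectifier gene, were at low levels in DG and called in both comparisons. Kcnk3 (TASK-1), an acid-sensitive leak channel, was at 3.62, 3.99, 6.54, 6.90 and 7.85 CPM in wild-type DG of 3 months and between 27.5 and 32.0 CPM (median 29.7) in the wild-type PFC-titled mice. Kcnj12 (Kir2.2), a strong inward rectifier, was at 1.12, 2.08, 3.13, 3.27 and 3.59 CPM in DG and between 11.6 and 15.9 CPM (median 13.9) in the PFC-titled mice. In neither gene did the groups overlap. Like Kcnt1, Kcnh4, Kcnf1, Kcng2, Kcna6 and Kcna4, both were named for the largest called fold change of their family. Lack of overlap in such genes is therefore no separate support, and its share over all genes was not counted. The log2 fold changes in wild-type and amyloid mice were 2.38 and 2.22 for Kcnk3 and 2.44 and 2.28 for Kcnj12 (adjusted p = 4.70e-09 and 9.01e-08 in wild-type mice by the edgeR fit). The leak channel genes Kcnk9 (TASK-3) and Kcnk4 (TRAAK) were also called in both, at 1.62 and 1.27 and at 1.03 and 2.19. Since the library kit did not keep strand, reads can be shared with genes that overlap a member in the annotation. Among the members given here with values this holds for Kcnk3 (Gm9899), Kcnk4 (Catsperz), Kcnh3 (Mcrs1), Kcnh7 (Gca and others), Kcnab2 (Nphp4 and others), Kcna6, Kcnd2, Kcng2, Kcnip3, Kcnj3, Kcnk1 and Kcnq5, among others, while Kcnt1, Kcnf1, Kcnh4, Kcnj12, Kcna4 and Kcng1 had no such gene.

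Several of the genes that were highest in DG were lower in the PFC-titled mice without reaching the fold threshold in both comparisons. They were named for the highest level of their family per kilobase in wild-type DG of 3 months. That group is the reference of the wild-type comparison, so this choice favours lower values in the PFC-titled mice. Kcnk1 differed by -0.84 in wild-type and -1.05 in amyloid mice, and was called in the second. Kcnj3 differed by -0.87 and -0.55, Kcnd2 (Kv4.2, the main A-current channel of dendrites) by -0.86 and -0.76, and Kcnab2 by -0.47 and -0.34. All of these had an adjusted p under 0.05 from edgeR in both comparisons. Under the alternatives the amyloid value of Kcnab2 ran from -0.65 to -0.14, and its adjusted p was not under 0.05 in every fit. Kcna2, Kcnh1 and Kcnv1, named by the same rule, were higher in both comparisons, and Kcnt2 had opposite signs.

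**Figure D3:**
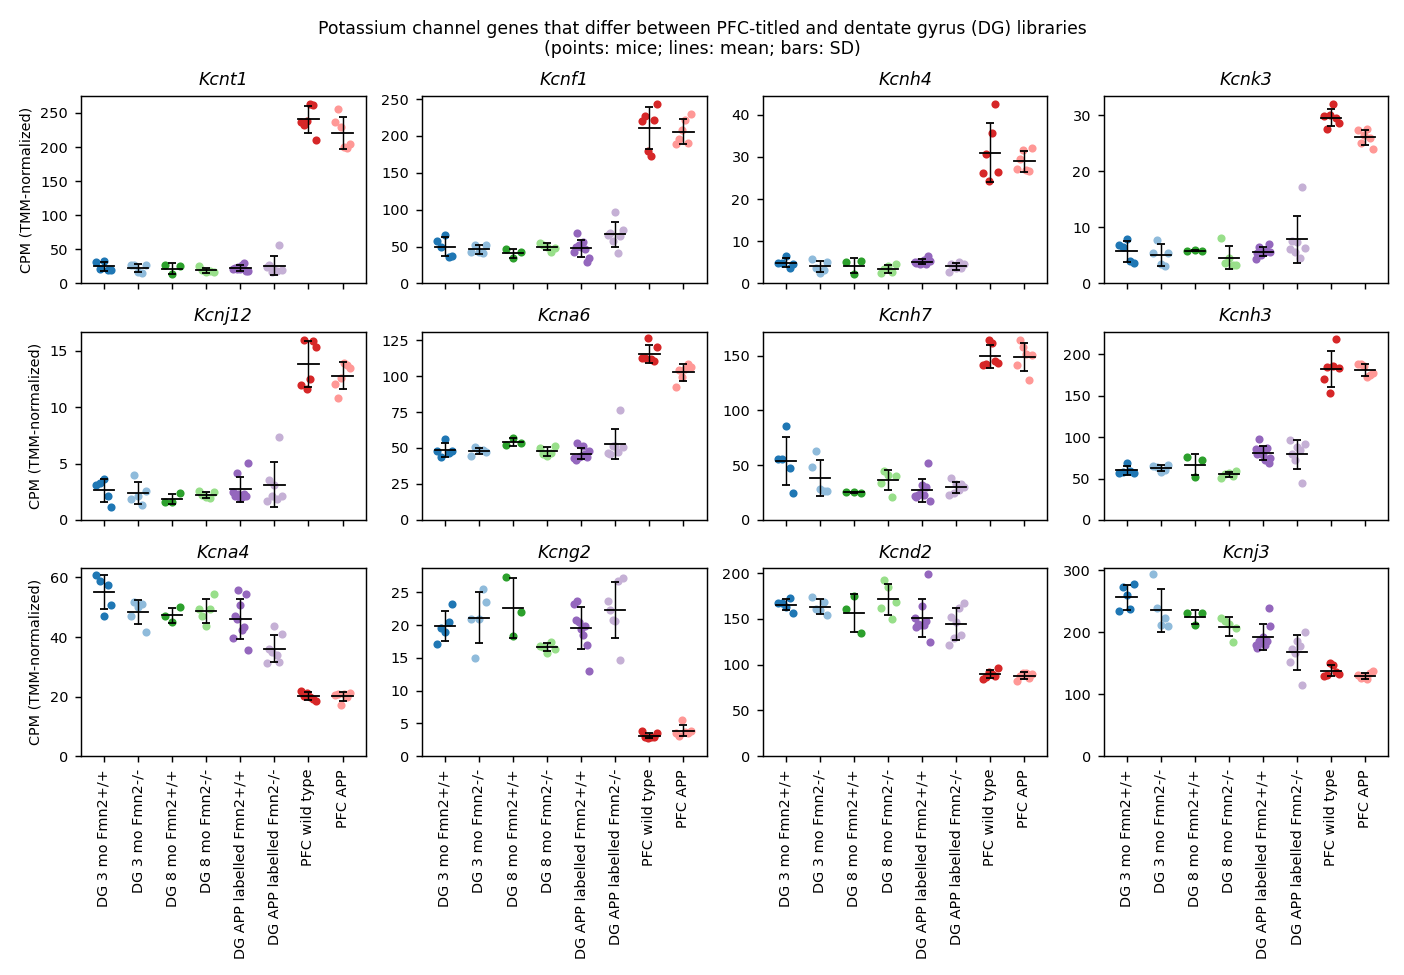
TMM-normalized CPM of 12 potassium channel genes in every mouse of the 8 groups, with the group mean and SD. The first 8 genes are higher in both PFC-titled groups than in the DG groups, for example Kcnt1 at 198 CPM or more against 57.1 or less, while Kcna4, Kcng2 and Kcnd2 are lower in every PFC-titled mouse than in every DG mouse and the ranges of Kcnj3 overlap.

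Auxiliary subunits had opposite patterns within the KChIP family, which binds Kv4 channels. Kcnip3 was at 62.8, 69.1, 70.8, 79.7 and 86.8 CPM in wild-type DG of 3 months and between 171 and 199 CPM (median 179) in the wild-type PFC-titled mice, a log2 fold change of 1.32 (adjusted p = 4.08e-10 by edgeR). The amyloid comparison gave 0.45 and no call. Kcnip2 went the other way at -0.70 and -1.18, called in the amyloid comparison alone. The DG groups of the 2 experiments were not tested against each other. Kcnq5, an M-current channel gene, was at 149 ± 28.3 CPM (SD, n = 5) in wild-type DG of 3 months and at 57.1 ± 16.6 (SD, n = 9) and 53.8 ± 18.8 (SD, n = 7) in the DG groups of the cross labelled FMN2 +/+ APP and FMN2-/-_APP, while both PFC-titled groups were at 131 CPM. Fmn2 was at 84.2 to 103.7 CPM in the group labelled FMN2-/-_APP and at 93.2 to 113 in wild-type DG of 3 months. In the group labelled FMN2 +/+ APP it was at 19.2 to 24.2 CPM. Kcnq5 was named after its values were seen. Transgene and experiment, which differ between wild-type DG and both groups of the cross, cannot be told apart. The part of transgene, experiment or Fmn2 in the Kcnq5 values was not tested. Kcnq5 was called higher in the PFC-titled mice in the amyloid comparison (1.21) and had a log2 fold change of -0.16 in wild-type mice.

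Markers of other cells moved with the region contrast too. Of 5 astrocyte markers 2 were called lower, of 4 markers of CA1 and CA3 pyramidal cells 2 lower and of 3 endothelial markers 1 higher in the PFC-titled wild-type mice, the 6 interneuron markers had a median log2 fold change of 0.20 with 1 called higher, and the oligodendrocyte markers had a median of 0.35 with none called. Of 4 choroid plexus markers the 2 tested were called lower (median -3.81). In the amyloid comparison all 4 choroid plexus markers were lower (median -5.73), all 4 markers of plaque-associated microglia higher (2.29), 2 of 5 astrocyte markers lower, and 1 marker each of interneurons, oligodendrocytes, their precursors and endothelium higher. The summed level of astrocyte markers ran from 1634 to 1782 CPM in wild-type DG of 3 months and from 857 to 987 in the wild-type PFC-titled mice. Of these markers Aqp4, Gfap, Slc1a3 and Gja1 had lower means in the PFC-titled mice. Aldh1l1 went the other way, at 34.4 to 37.5 CPM in that DG group and 49.96 to 66.4 in the PFC-titled group. The sum therefore does not show that astrocytes were fewer. The part of the markers of other cells in the potassium channel values was not tested. Among 19 further genes that act with potassium channels, 18 were tested and 5 were called in wild-type mice. The Kv4 partner Dpp10 (1.79), the BK gamma subunit Lrrc38 (2.29) and the pacemaker channels Hcn3 (1.40) and Hcn4 (1.42) were higher in the PFC-titled mice, and Lgi1, secreted and found with Kv1 channels, was lower (-1.23). The amyloid comparison called the same 5 genes in the same direction and, in addition, Abcc9, a subunit of ATP-sensitive channels. Another Kv4 partner, Dpp6, went the other way from Dpp10, at -0.83 in wild-type and -0.65 in amyloid mice, under the fold threshold. Lrrc38 and Hcn4 were low, with means of 0.55 and 0.86 CPM in wild-type DG of 3 months and 2.62 and 2.17 in wild-type PFC-titled mice.

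At 3 months none of 74 members tested was called between knockout and wild-type DG (adjusted p under 0.05 and a log2 fold change of at least 0.25 in either direction), where 0.0301% of 16630 genes were called. An unadjusted p under 0.05 was reached by 4 members, where 10.5% of all genes reached it, and DESeq2 called no member either. The log2 fold changes ran from -0.55 to 0.49 with a median of -0.06, and 64 of the 74 were under 0.25 in size. Kcnj2 (Kir2.1), with the smallest p of all members, was at 29.8, 32.3, 35.5, 36.4 and 39.1 CPM in wild-type and at 20.9, 23.2, 24.5, 31.9 and 36.4 CPM in knockout mice. The groups overlapped, and its log2 fold change was -0.36 (SE 0.14, adjusted p = 0.422 by the edgeR fit). All wild-type and 1 of the knockout mice were sequenced on lane 5 and the other knockout mice on lane 6, and with the lane as covariate the value of Kcnj2 was 0.06. Kcnn1 (SK1), the next by p, had a log2 fold change of 0.17 (SE 0.070, adjusted p = 0.424 by edgeR).

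**Figure D4:**
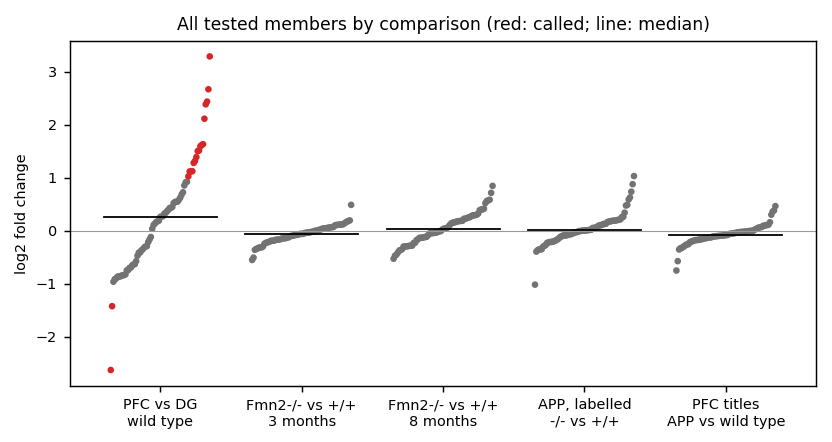
Log2 fold changes of all members tested in the wild-type region comparison and in the Fmn2 and amyloid comparisons, sorted within each, with red for called genes and a line at the median. The region values run from -2.63 to 3.29, against -0.55 to 0.49 for Fmn2 at 3 months.

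At 8 months none of 70 members tested passed the same thresholds, where 1.13% of 14665 genes were called, and the number of calls depended on the fit. An unadjusted p under 0.05 was reached by 22 members, where 23.3% of all genes reached it. Kcng1 (Kv6.1), a silent partner of Kv2 channels, was at 73.6, 83.0 and 90.8 CPM in wild-type and at 62.4, 63.6, 64.03, 65.1 and 69.1 CPM in knockout mice. In this gene every knockout mouse was below every wild-type mouse, and the wild-type mice spread more widely than the knockout mice. The log2 fold change was -0.29 (SE 0.068, adjusted p = 0.054 by the edgeR fit). DESeq2 called 5 members (2 higher and 3 lower), among them Kcnab1 and Kcnh7 higher and Kcng1 and Kcng2 lower, where it called 733 of all 14665 genes. The fit without a filter on low counts called 9 of 85 members and 1124 of 28588 genes. Leaving out wild-type replicate 2, the library with 6818809 reads, gave calls for 22 of 71 members (15 higher and 7 lower) and for 3087 of all 15021 genes. Leaving out wild-type replicate 3 gave 1 member and 160 of 14950 genes. Knockout replicates 2 and 3, taken here as 2 mice by their titles, had nearly coinciding counts.

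Kcng1 was also the 1 member of 73 tested for which the Fmn2 effect differed between the ages, where 3.73% of 17046 genes were called. Its values at 3 months were 63.5, 72.7, 76.1, 77.2 and 82.4 CPM in wild-type and 71.9, 76.1, 80.6, 84.4 and 94.04 CPM in knockout mice. The groups overlapped at 3 months and lay apart at 8 months. The knockout effect at 8 months minus that at 3 months was -0.41 on the log2 scale (SE 0.11, adjusted p = 0.0448 by the edgeR fit), with effects of 0.11 at 3 months and -0.29 at 8 months. The call was lost when length and GC content were corrected for (-0.19, adjusted p = 0.459), when the 8-month knockout replicates 2 and 3, whose counts nearly coincided, were summed (adjusted p = 0.0736), and in 15 of the 18 fits without 1 mouse. Without the wild-type replicate 2 of 8 months 13 of 76 members were called, Kcng1 among them, and 2791 of all 17545 genes. Lane and library depth also differed between the ages for most mice, and at 3 months lane mostly went with genotype. No fit of the difference between the ages held lane as a covariate.

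**Figure D5:**
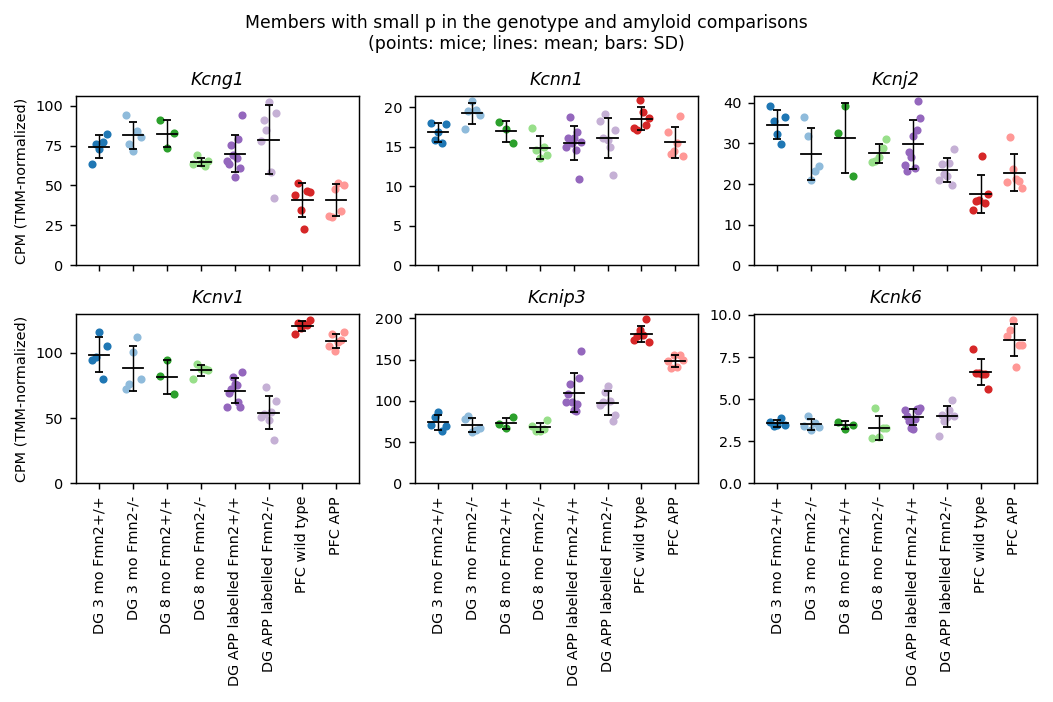
TMM-normalized CPM of Kcng1, Kcnn1, Kcnj2, Kcnv1, Kcnip3 and Kcnk6 in every mouse of the 8 groups, with the group mean and SD. Kcng1 is lower in every knockout than in every wild-type DG mouse of 8 months, and Kcnip3 is lower in every APP than in every wild-type PFC-titled mouse.

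In the amyloid cross none of 75 members tested was called between libraries labelled FMN2-/-_APP and FMN2 +/+ APP (adjusted p under 0.05 and a log2 fold change of at least 0.5), where 0.774% of 16656 genes were called. An unadjusted p under 0.05 was reached by 17 members, where 16.6% of all genes reached it, and DESeq2 called no member. Fmn2 itself was higher in the libraries labelled FMN2-/-_APP by 2.15 on the log2 scale, so the direction below follows the labels and not the Fmn2 count. Kcna4 ran from 31.4 to 43.6 CPM (median 34.99) in the 7 libraries labelled FMN2-/-_APP and from 35.5 to 55.9 CPM (median 46.0) in the 9 labelled FMN2 +/+ APP. Kcnv1 ran from 33.3 to 74.1 CPM (median 53.4) and from 58.3 to 85.3 CPM (median 72.01). Both pairs of ranges overlapped, with log2 fold changes of -0.35 (SE 0.094, adjusted p = 0.0643) and -0.39 (SE 0.13, adjusted p = 0.119) by the edgeR fit. Kcnip1 was the 1 member called, at 0.63, when all mice were fitted together.

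In the PFC-titled mice none of 74 members tested was called between APP and wild type at a log2 fold change of at least 0.5, where 2.34% of 16733 genes were called, but most log2 fold changes were below 0. At an adjusted p under 0.05 and any fold change there were 7 members, against 3.81% of all genes. Among these Kcna6, Kcnc1, Kcnip3 and Kcnv1 were lower and Kcnk6 higher in APP mice. In all, 57 of the 74 log2 fold changes were negative, with a median of -0.08 over the members and of -0.00041 over all genes. Kcnip3 ran from 140 to 156 CPM (median 149) in APP and from 171 to 199 CPM (median 179) in wild-type mice, with no overlap. Its log2 fold change was -0.29 (SE 0.044, adjusted p = 0.000365 by the edgeR fit), and the adjusted p was 0.208 in the fit over all mice. Kcnk6 (the two-pore channel TWIK-2), named after its values were seen, was at 8.49 ± 0.955 and 6.61 ± 0.753 CPM (SD, n = 6 each), a log2 fold change of 0.36 (adjusted p = 0.0428 by edgeR). Kcng4, a silent subunit also named after its values were seen, was called lower with DESeq2, without the low-count filter and with all mice in the fit, at -0.77, -0.75 and -0.77 on the log2 scale.

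Other cells differed between these groups as well. All 5 microglia markers and all 4 markers of plaque-associated microglia were called higher in the APP mice, with medians of 0.75 and 5.86 on the log2 scale. Of 5 astrocyte markers Gfap was called higher, at 173 to 291 CPM in APP and 48.9 to 67.8 CPM in wild-type mice. The summed oligodendrocyte markers ran from 1122 to 1808 CPM in APP and from 1836 to 5128 CPM in wild-type mice, where wild-type replicate 3 was at 5128 and replicate 4 at 3326. Their part in the differences was not tested. All PFC-titled APP mice were sequenced on lane 7 and all PFC-titled wild-type mice on lane 5, so amyloid and lane cannot be told apart.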

How the data were processed

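RNA of whole tissue was sequenced from 46 mice in 48 runs (TruSeq RNA v2, which keeps no strand). The authors aligned reads to mm10 with STAR and counted them per gene, and the deposited counts of each run were used as they stand. The annotation release and the strand setting of the counting are not given in the sources used here. The 2 runs of 1 mouse were summed. Gene class, exon length and GC content came from GENCODE M21, which held 48349 of the 48709 genes listed, and promoter windows from RefSeq (GRCm38.p6).

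Genes were kept by filterByExpr (minimum count 10, minimum total 15), scaled by TMM and tested with edgeR 4.0.16 (R 4.3.3) by the quasi-likelihood test, with Benjamini-Hochberg adjustment over all genes kept. Each fit held the mice of its own groups. CPM used TMM factors over all mice, and CPM per kb divides by exon length. Calls needed an adjusted p under 0.05 and a log2 fold change of at least 1 (region), 0.25 (Fmn2 at each age and its difference) or 0.5 (cross and amyloid). DESeq2 1.42.0, RLE size factors, no filter, a length and GC correction, other reference groups, lane, a replicate block and leaving out each mouse were tried as alternatives. The steps were tested on simulated counts whose planted changes lay above every fold threshold given here. That test does not show how often smaller changes would be found.

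Each replicate is a separate mouse by its title, and p-values measure only the spread between these mice. Knockout replicates 2 and 3 of 8 months were unusually alike, with a chi-square per degree of freedom between their counts of 1.62. Pairs of runs from 1 mouse gave 1.72 and 2.15, and the other pairs of that knockout group 3.50 to 6.40. Whether these replicates come from 1 mouse was not tested. The members and lists were chosen with earlier results of these data known. Named in each family were the member with the largest log2 fold change of each sign in the wild-type comparison among those called in both region comparisons, and the member highest per kb in wild-type DG. Also named were members called in an Fmn2 or amyloid comparison or, where none was, the 2 with the smallest p. Other members with values were chosen after these were seen. Some members are counted but not reported here by name, and the scatter and the plot by family leave them out.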

Additional observations from a re-analysis of the deposited data

Results flagged for a closer look

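Among 20 genes named by rule, 140 sets of 1 gene in 1 group of 4 to 10 mice were searched for a mouse that stood apart by Dixon's test. It found 13, and chance marks about 1 in 20 sets. Replicate 7 of the mice labelled FMN2-/-_APP accounted for 5 of them. It was highest in Kcnt1 at 57.1 CPM (nearest mouse 26.7), Kcnk3 at 17.2 (7.52), Kcnj12 at 7.35 (3.56) and Kcna6 at 76.3 (51.5), and lowest in Kcnab2 at 426 (594). Its summed markers of dentate granule cells, 921 CPM, were the lowest of its group, those of interneurons, 901 CPM, and of oligodendrocytes, 2525 CPM, were the highest, and its cortical projection neuron markers, 220 CPM, lay within the group's 208 to 257. Replicate 8 of the mice labelled FMN2 +/+ APP was highest in Kcnh1 at 113 CPM (nearest 81.6) and Kcnh4 at 6.51 (5.47), and its interneuron markers, 398 CPM, were the lowest of its group. Its markers of cortical projection neurons (297 CPM), microglia (399 CPM) and plaque-associated microglia (55.4 CPM) were the highest of its group. Whether these marker levels bear on the channel genes was not tested.

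Replicate 3 of the PFC-titled APP mice was lowest in Kcna4 at 17.2 CPM (nearest 19.9) and highest in Kcng2 at 5.58 (3.91). In the PFC-titled wild-type mice Kcnt2 was highest in replicate 3 at 53.0 CPM (46.6) and Kcnj2 in replicate 4 at 26.8 (17.5). Kcnab2 was lowest in replicate 1 of the knockout mice of 3 months at 583 CPM (686), and Kcnk3 highest in replicate 1 of the knockout mice of 8 months at 8.12 (4.59). The Fmn2 effect on Kcng1 differed between the ages by -0.41 on the log2 scale, as tested by the interaction.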

How the results depend on the processing

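The region counts lay within 18 to 23 members in wild-type mice and 24 to 29 in amyloid mice under every alternative tried, and within 18 to 19 and 24 to 26 with 1 mouse left out. At 3 months no member was called under any alternative, and in the cross none was with 1 mouse left out. At 8 months 5 members were called with DESeq2, 9 without the low-count filter and 0 to 22 with 1 mouse left out. For the difference between ages 3 members were called with DESeq2, 0 with the length and GC correction, with 1 fit over all mice or with knockout replicates 2 and 3 of 8 months summed, and 0 to 13 with 1 mouse left out. In the cross 1 member was called with 1 fit over all mice. In the PFC-titled amyloid comparison 1 member was called with DESeq2, without the filter or with all mice, and 0 to 1 with 1 mouse left out (Kcng4 without APP replicate 5 or wild-type replicate 2, Kcnj2 without wild-type replicate 4). The cause of these changes was not tested. Kcnj2 changed sign at 3 months to 0.061 with lane as covariate. Sign and side of the threshold were kept in 666 of 672 refits of the 32 named region values and in 118 of 140 refits of the 7 named genotype and amyloid values, where 18 lost and 3 gained the call. With a replicate block 18 and 24 members were called in the region comparisons and 0 in the Fmn2 comparisons at each age, the cross and the amyloid comparison. Same-numbered mice correlated at means of -0.036 to 0.069, so the numbers were not taken as a pairing. Leaving out 1 mouse in groups of 6 to 9, and the lane 7 mice alone, were alternatives chosen after seeing the data. The shallowest library held 6818809 counts (wild type of 8 months).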
